A study of Mus musculus with 15 samples.

Results

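The P2Y receptors and the adenosine receptors are the G protein-coupled arm of purinergic signalling. They were described here in purified alpha, beta and delta cells of mouse pancreatic islets. The members were the rows of the expression table whose gene symbol was P2ry1, P2ry2, P2ry6, P2ry12, P2ry13, P2ry14, Adora1, Adora2a, Adora2b or Adora3. All 10 symbols were found, in 11 of 38283 rows, since Adora3 named 2 rows. RNA was measured in 15 samples: alpha cells (5) and beta cells (4) from Glu-Venus mice, and delta cells (6) from Sst-CreXROSA26EYFP/EYFP mice, all on the C57BL/6 strain. No mouse ages were given in the sources used here.

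Alpha cells were sorted by Venus driven by the proglucagon promoter, delta cells by EYFP switched on by Cre under the Sst promoter, and beta cells as Venus-negative cells with high scatter and autofluorescence. Each replicate was a pool of islets from several mice. Since delta cells alone came from the Sst-Cre cross, mouse line and cell type cannot be told apart in any comparison with them. In these bulk samples, fewer cells of a type and less RNA per cell cannot be told apart either. Values are FPKM, the sequenced fragments of a gene scaled for its transcript length and for the mapped reads of the sample.

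ATP and UTP leave cells with secretory granules or through channels, and enzymes at the cell surface break them down stepwise to ADP, UDP and adenosine. P2Y receptors bind the nucleotides and nucleotide sugars, and adenosine receptors bind the nucleoside. P2ry1, P2ry2 and P2ry6 couple mainly to Gq, which raises cytosolic calcium, whereas P2ry12, P2ry13 and P2ry14 couple to Gi. Adora2a and Adora2b couple to Gs, which raises cAMP, and Adora1 and Adora3 couple to Gi, which lowers it. Insulin granules carry ATP, so islet cells are exposed to purines when beta cells secrete.

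The alpha, beta and delta cell markers listed followed the labels, and Ppy, the hormone gene of PP cells, was high in both alpha and delta cells. Ppy was at 17728 to 41392 FPKM in alpha, 10857 to 48600 in delta and 16.9 to 98.1 in beta cells. The summed FPKM of 6 alpha cell markers was 194970 to 363680 in alpha cells and 288.0 to 3005 in the others. For 6 beta cell markers it was 140440 to 789020 in beta cells and 4579 to 14828 in the others, and for 3 delta cell markers it was 102580 to 267800 in delta cells and 38.6 to 3345 in the others. Single-read steps in the low values could be resolved in 6 samples (alpha 2 and 5, delta 1 to 4), which implied 7.3 M to 30.2 M reads. In the other 9, which include every beta sample, the depth was unknown. Each sample had 14761 to 18559 rows above 0. The summed FPKM of 85 ribosomal protein genes separated 6 samples (alpha 1, 2 and 3, beta 2, delta 1 and 2; 65611 to 140980) from the other 9 (7919 to 38775). The 7 acinar cell genes listed summed to 89.8 to 563 FPKM in delta cells, 8.11 to 78.5 in alpha cells and 0.0283 to 11.3 in beta cells, and their part in the results was not tested. The endothelial, stellate and fibroblast, mast cell and Schwann cell lists each summed to at most 6.17 FPKM in any sample.

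The leading receptors differed between the cell types. By mean FPKM, P2ry1 and P2ry6 led in beta cells, P2ry1 and Adora1 in delta cells, and Adora2a in alpha cells. This order is among the 10 rows other than the second Adora3 row. The Gq-coupled P2Y genes made up 80.6% ± 9.43 (SD, n = 4) of the summed FPKM of those 10 rows in beta cells. With the second Adora3 row included this share was 49.6% ± 19.6 (25.3% to 69.4% in single samples), and that row made up 39.6% ± 19.0. In delta cells the Gq-coupled P2Y genes made up 57.3% ± 22.9 (SD, n = 6). Beside them stood 25.6% ± 21.4 for the Gi-coupled and 14.9% ± 3.75 for the Gs-coupled adenosine receptors. The Gi-coupled adenosine share there had a median of 20.6% and ranged from 7.99% to 65.8%, with delta 2 highest. Adora2a was above Adora1 in delta 3 (1.61 against 1.39 FPKM) and delta 4 (3.14 against 1.38 FPKM). In alpha cells the Gs-coupled adenosine receptors made up 69.4% ± 28.9 (SD, n = 5), with a range of 25.7% to 94.2%. Over all 11 rows this share was 49.9% ± 29.0 (3.98% to 72.8%), and alpha 3 was lowest, where the second Adora3 row took 84.5%. The summed level itself was 25.3 ± 8.39 FPKM for beta, 17.2 ± 3.97 for delta and 4.10 ± 1.99 for alpha cells, and alpha 3 had the smallest sum, 0.712. Over all 11 rows the sums were 50.6 ± 39.7 FPKM for beta, 18.2 ± 3.75 for delta and 6.14 ± 1.26 for alpha cells. Beta 2, at 109.87 FPKM, lifted the beta mean above the beta median of 32.45.

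**Figure D1:**
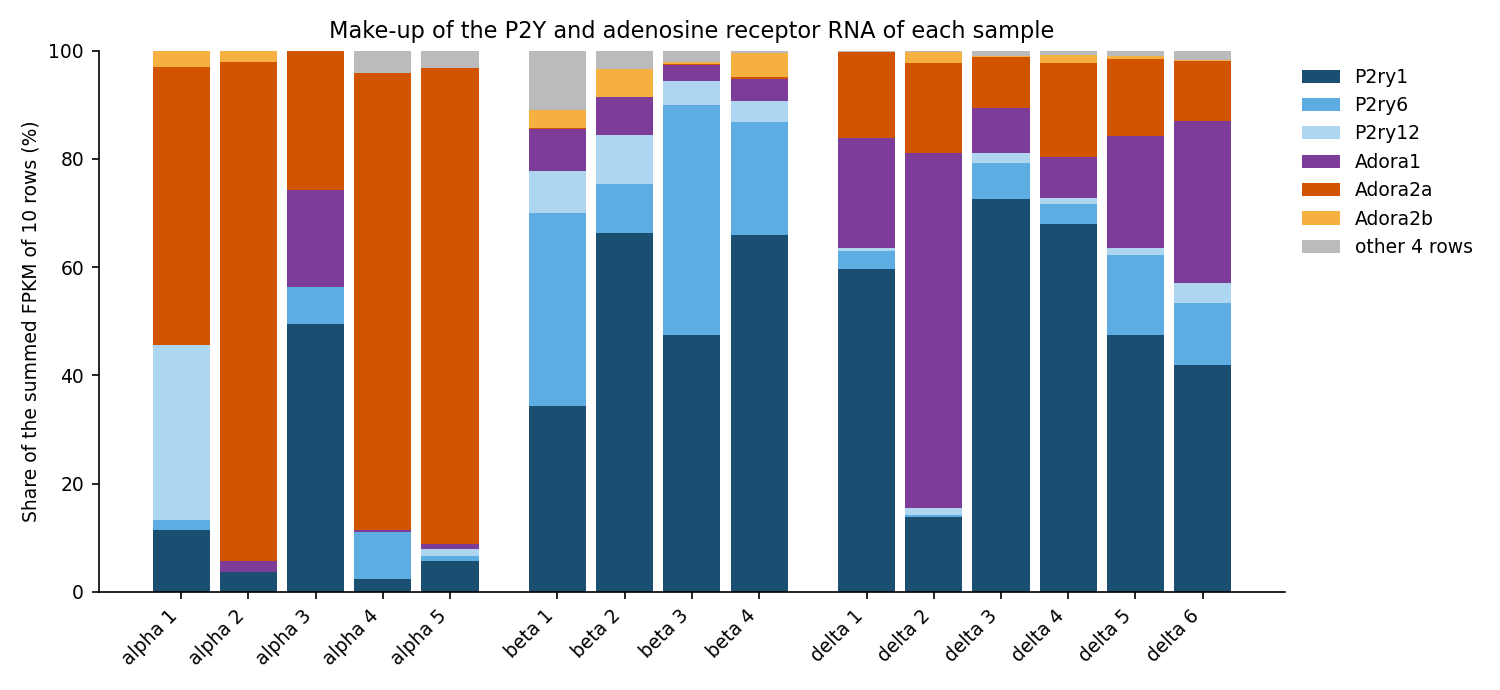
Share of each receptor gene (%, vertical axis) in the summed FPKM of 10 rows, for each sample (horizontal axis); the second Adora3 row is left out. Adora2a takes 25.7% to 92.3% of the alpha bars, P2ry1 and P2ry6 together take 70.1% to 90.0% of the beta bars, and Adora1 takes 7.62% to 65.5% of the delta bars.

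Of the 11 rows, 6 had a mean above 1 FPKM in at least 1 cell type and were tested with 14405 genes in all: P2ry1, P2ry6, P2ry12, Adora1, Adora2a and the second Adora3 row. Differences are in mean log2(FPKM + 1), which understates the change of low genes, and a call is an adjusted p under 0.05 in limma. In the beta to alpha comparison 7.66% of all genes tested were called (2.84% with the higher level in beta cells and 4.82% with the lower), and of these 6 rows 4 were called, 3 upwards and 1 downwards. The balance over all genes rested on single beta samples, with 654 genes higher and 434 lower without beta 3, against 409 and 695. In the delta to alpha comparison 6.81% of genes were called (5.33% upwards in delta cells), and 2 of the rows, both upwards. In the delta to beta comparison 14.7% were called (11.7% upwards and 2.99% downwards in delta cells), and 3 of the rows, 1 upwards and 2 downwards. This balance over all genes rested on the scaling, with 1397 genes higher and 1348 lower in delta cells after quantile normalization, against 1683 and 431. A row passes the limit through the cell type in which it is high, so these 6 rows are not the whole family.

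The other 5 rows are P2ry2, P2ry13, P2ry14, Adora2b and the Adora3 row. P2ry12, at 1.66 ± 1.14 FPKM in beta cells, was just inside the limit, and Adora2b, at 0.938 ± 0.790 in beta cells, just outside. Over the 10 rows above 0, the median difference was 0.90 from alpha to beta cells, with 9 rows higher in mean, against -0.01 over all 23792 rows above 0. It was 0.03 from alpha to delta cells against 0.03 over all rows, and -0.53 from beta to delta cells against 0.06.

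**Figure D2:**
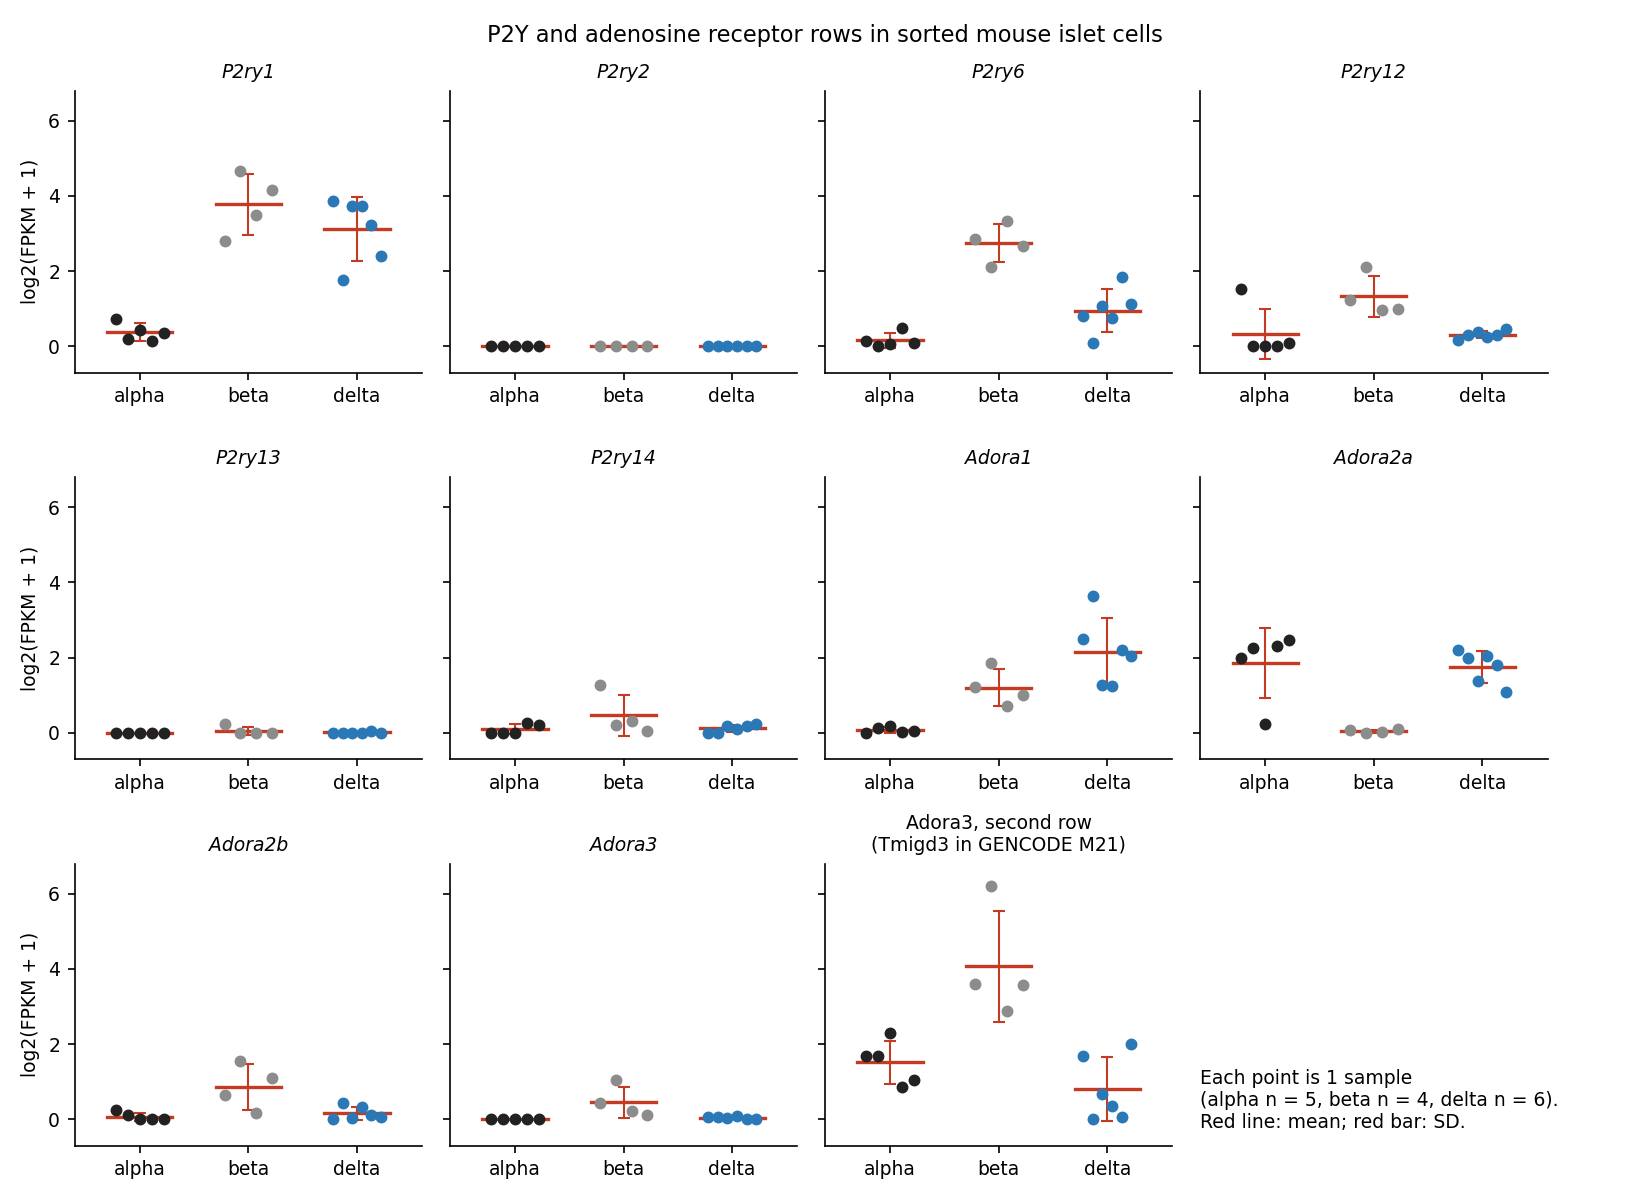
Level of each of the 11 rows as log2(FPKM + 1) (vertical axis) in each alpha, beta and delta cell sample (points), with mean (red line) and SD (red bar). P2ry1 lies at 0.111 to 0.666 FPKM in alpha cells and at 2.43 FPKM or more in every beta and delta cell sample.

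P2ry1 encodes the Gq-coupled receptor for ADP. The gene lies on chromosome 3 (GRCm38 chr3:61002795-61008982, plus strand). Its level was 0.666, 0.154, 0.352, 0.111 and 0.287 FPKM in alpha samples 1 to 5, and 6.00, 24.5, 10.2 and 16.7 in beta samples 1 to 4. In delta samples 1 to 6 it was 13.5, 2.43, 12.3, 12.3, 8.37 and 4.32 FPKM. Every beta and delta sample was above every alpha sample, and the beta and delta samples overlapped.

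The mean P2ry1 level was 14.3 ± 8.06 FPKM in beta cells, 8.87 ± 4.64 in delta cells and 0.314 ± 0.219 in alpha cells. In beta cells this placed P2ry1 above 90.7% of all rows by mean. The difference from alpha to beta cells was 3.40 (SE 0.459, limma adjusted p = 0.00016), or 45.7-fold in the mean FPKM. From alpha to delta cells it was 2.74 (SE 0.414, limma adjusted p = 0.00038), or 28.2-fold. Delta and beta cells differed by -0.65 (SE 0.442, limma adjusted p = 0.36), so no difference between them was shown at this spread. Among the samples with more ribosomal protein RNA, P2ry1 was 0.154 to 0.666 FPKM in alpha, 24.5 in the 1 beta and 2.43 to 13.5 in the delta samples, and among the rest 0.111 to 0.287, 6.00 to 16.7 and 4.32 to 12.3.

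The amplification kit did not mark strand, and 992 nt (23.1%) of the exons of P2ry1 are shared with Gm37035 on the opposite strand, so reads there cannot be told apart. The 250 bases before the RefSeq start of P2ry1 (GRCm38.p6 chr3:61002535-61002784, plus strand) are shown because this gene had the highest level of the 10 symbols' own rows in beta and delta cells. Capitals mark the GC box, GGGCGG, which lies here on the strand opposite to the one printed.
P2ry1: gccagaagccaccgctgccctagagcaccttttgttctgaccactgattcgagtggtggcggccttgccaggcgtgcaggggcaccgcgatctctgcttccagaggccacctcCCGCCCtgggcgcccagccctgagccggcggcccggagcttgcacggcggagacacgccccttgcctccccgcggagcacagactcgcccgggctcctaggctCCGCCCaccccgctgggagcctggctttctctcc
This window had a GC content of 70.8% and 20 CG pairs, against medians of 52.4% and 6 over 32536 mouse windows of the same kind. GGGCGG, searched like the others on both strands, occurred in 33.0% of those windows. The TATA box TATAAA (12.3% of windows) was not in it. Nor was the E-box CAGATG (14.4% of windows). The cAMP response element TGACGTCA (1.56% of windows) was not found either. A match in letters is a description and not a binding site.

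P2ry6 encodes the Gq-coupled receptor for UDP and was mainly a beta cell transcript. It lies on chromosome 7 (chr7:100937630-100974649, minus strand). Beta samples 1 to 4 had 6.26, 3.34, 9.09 and 5.32 FPKM. Alpha samples 1 to 5 had 0.104, 0, 0.0490, 0.406 and 0.0551, and delta samples 1 to 6 had 0.747, 0.0715, 1.12, 0.680, 2.59 and 1.18. All beta samples were above all alpha and delta samples, whereas the latter groups overlapped through delta 2.

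The P2ry6 level of beta cells exceeded that of alpha cells by 2.59 (SE 0.343, limma adjusted p = 0.00014). From beta to delta cells it was lower, with a difference of -1.79 (SE 0.330, limma adjusted p = 0.0016), with mean levels of 6.00 ± 2.39 FPKM in beta and 1.06 ± 0.846 in delta cells, a ratio of 5.64. Delta and alpha cells differed by 0.79 (SE 0.310), which did not pass the adjustment (limma adjusted p = 0.17), although the two-sided exact permutation test of P2ry6 by itself had an unadjusted p of 0.013. That test was 1 of 30 of its kind.

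P2ry2, the Gq-coupled receptor for ATP and UTP, was listed at 0 in all 15 samples. P2ry2 (chr7:100996568-101012866, minus strand) neighbours P2ry6 on chromosome 7. Of this neighbouring pair, only P2ry6 had values above 0.

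P2ry12, P2ry13 and P2ry14 encode the Gi-coupled P2Y receptors, of which P2ry12 and P2ry13 bind ADP and P2ry14 binds UDP-sugars. All 3 lie on the minus strand of chromosome 3 within the span of Med12l, which runs on the opposite strand. The mean Med12l levels were 2.64 (alpha), 3.33 (beta) and 2.70 FPKM (delta). It shares 9 nt of exon with P2ry12 and none with P2ry13 or P2ry14.

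P2ry12 (chr3:59216272-59262871) was at 1.36, 3.34, 0.959 and 0.986 FPKM in beta samples 1 to 4. It was at 1.88 in alpha 1, at 0.0675 in alpha 5 and at 0 in alpha 2, 3 and 4, and in the delta samples it ranged from 0.125 to 0.368 with a median of 0.239. The beta samples were all above the delta samples, and alpha 1 alone overlapped the beta samples. The difference from alpha to beta cells was 1.01 (SE 0.356, limma adjusted p = 0.099) and became a call without alpha 1 (1.31, adjusted p = 0.019). The difference from beta to delta cells was -1.02 (SE 0.343, limma adjusted p = 0.057), and without alpha 1 it was also called (adjusted p = 0.022).

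P2ry13 (chr3:59207892-59210882) was above 0 only in beta 1, at 0.167 FPKM, and in delta 5, at 0.0424. P2ry14 (chr3:59113855-59153618) was at 1.40, 0.165, 0.252 and 0.0287 FPKM in beta samples 1 to 4. It was above 0 in 2 of 5 alpha samples, up to 0.192, and in 4 of 6 delta samples, up to 0.168. Neither was called in any comparison in the fit of all 23792 rows above 0, with limma adjusted p of 0.28 or more (4.07%, 4.71% and 9.08% of those rows were called in the 3 comparisons).

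P2ry12 is known as the ADP receptor of platelets and of microglia, so markers of platelets and macrophages are given beside the P2Y values. The 4 platelet and megakaryocyte genes summed to 2.77 FPKM at most in any sample. Of 14 macrophage genes in the table, 8 were below 1 FPKM in every sample, and Emr1, Aif1 and Ptprc did not exceed 0.469, 0.450 and 0.0581 FPKM. Cd68, Tyrobp, C1qc and Lyz2 reached 2.00, 1.70, 2.89 and 1.88 FPKM at most in any sample. In beta cells Cd68 and Lyz2 reached 1.70 and 1.09 FPKM. The macrophage sums were 5.71 to 35.4 FPKM in beta, 12.7 to 30.4 in alpha and 19.5 to 46.8 in delta cells. C1qa had the highest mean of the list in each cell type, at 8.19 FPKM in beta, 17.2 in alpha and 24.4 in delta cells, and Fcer1g followed in beta cells with 6.34. The means of P2ry6, P2ry12, P2ry13 and P2ry14 were highest in beta cells. Of the macrophage genes Fcer1g had its highest values there too, at 2.30 to 13.3 FPKM in beta, 0.161 to 3.68 in alpha and 0.0687 to 4.85 in delta cells, and its part in the results was not tested.

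**Figure D3:**
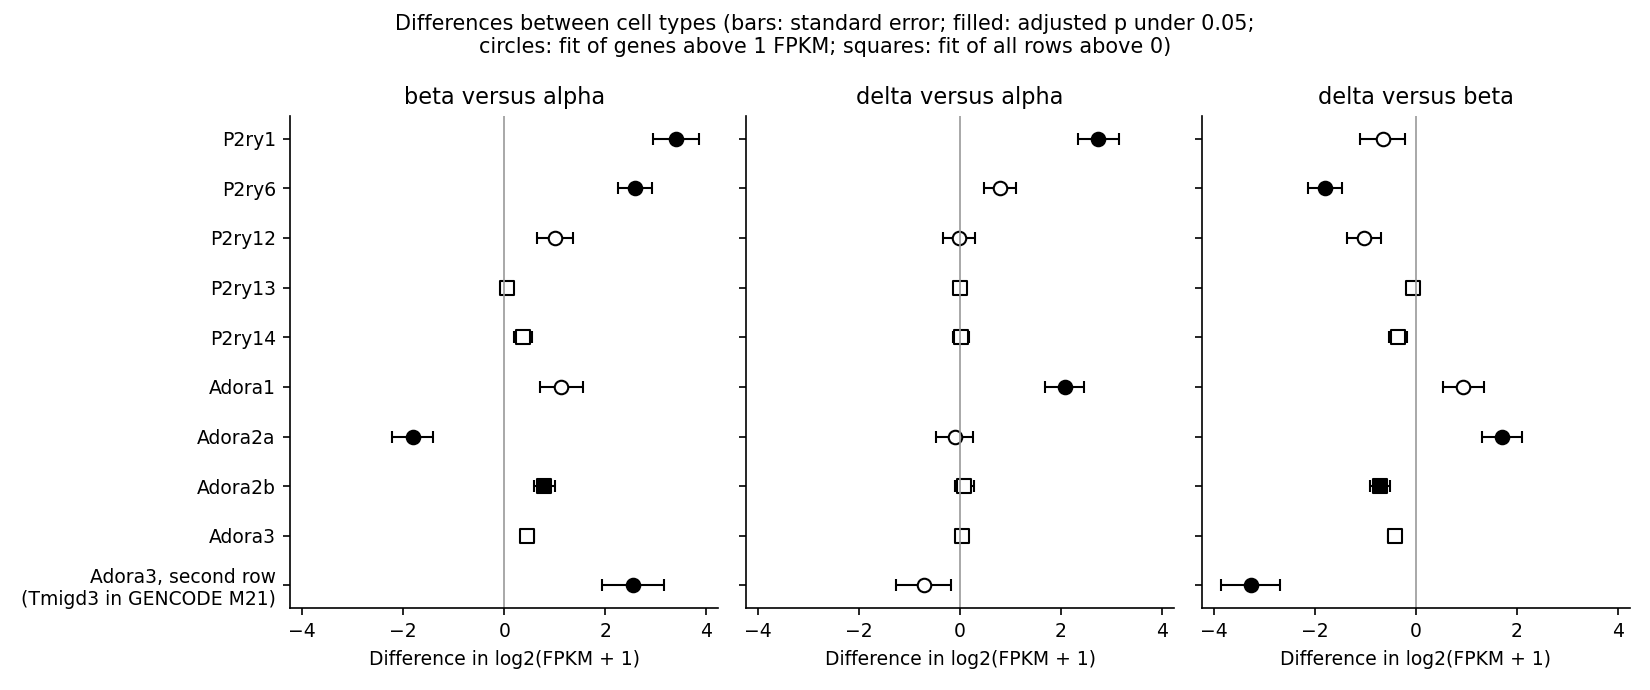
Differences in mean log2(FPKM + 1) (horizontal axis, bars SE) for 10 rows (vertical axis) in the 3 comparisons, with calls filled. P2ry1 is at 3.40 and 2.74 against alpha cells in the left and middle panels and at -0.65 between delta and beta cells on the right, where it is open.

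Adora1, the Gi-coupled receptor with high affinity for adenosine, had its highest mean in delta cells. It lies on chromosome 1 (chr1:134199223-134235431, minus strand). Delta samples 1 to 6 had 4.62, 11.5, 1.39, 1.38, 3.64 and 3.08 FPKM, and beta samples 1 to 4 had 1.34, 2.61, 0.638 and 1.02. The alpha samples ranged from 0 to 0.128 with a median of 0.0404. All beta and delta samples were above all alpha samples, and beta 2 overlapped the delta samples.

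The Adora1 level of delta cells exceeded that of alpha cells by 2.07 (SE 0.381, limma adjusted p = 0.0022). From alpha to beta cells the difference was 1.13 (SE 0.422, limma adjusted p = 0.12), and it was called without delta 2 (adjusted p = 0.049), which enters through the shared spread, and in 3 other alternatives (a pseudocount of 0.1, the term for the ribosomal protein split, and only alpha and beta samples). From beta to delta cells it was 0.95 (SE 0.406, limma adjusted p = 0.14; two-sided exact permutation p = 0.057). Within the samples with more ribosomal protein RNA, the 1 beta sample had 2.61 FPKM and the 2 delta samples 4.62 and 11.5. Within the rest, the 3 beta samples had 0.638 to 1.34 FPKM and the 4 delta samples 1.38 to 3.64. The lowest delta and the highest beta sample of the latter set were at 1.38 and 1.34 FPKM. With a term for this split, which was chosen with results known, the difference from beta to delta cells was 0.88 (SE 0.339, limma adjusted p = 0.079) and was not called.

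Adora1 shares 1162 nt (20.1%) of its exons with Mybph on the opposite strand, and reads there cannot be told apart without strand. Mybph itself was low, at 0 in alpha cells, at most 0.482 FPKM in beta cells and at most 0.172 in delta cells. The 250 bases before one RefSeq start of Adora1 (GRCm38.p6 chr1:134235458-134235707, minus strand) are printed because Adora1 was, beside P2ry1, the other receptor called between delta and alpha cells, with GGGCGG of the opposite strand in capitals.
Adora1: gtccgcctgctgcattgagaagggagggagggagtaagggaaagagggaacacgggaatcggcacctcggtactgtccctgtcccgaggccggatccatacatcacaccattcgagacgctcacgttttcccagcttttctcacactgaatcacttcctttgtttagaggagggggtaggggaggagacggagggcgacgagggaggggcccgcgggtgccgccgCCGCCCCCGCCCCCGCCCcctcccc
It holds 3 adjacent GC boxes, 19 CG pairs and 64.4% GC, and like the P2ry1 window it is above the median in GC content. The other RefSeq start of Adora1, with 65.2% GC, has none of the 4 motifs.

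Adora2a, a Gs-coupled adenosine receptor, was present in alpha and delta cells and near 0 in beta cells. It lies on chromosome 10 (chr10:75316877-75334784, plus strand). Alpha samples 1 to 5 had 2.97, 3.82, 0.183, 3.98 and 4.51 FPKM, and delta samples 1 to 6 had 3.61, 2.94, 1.61, 3.14, 2.51 and 1.14. Beta samples 1 to 4 had 0.0495, 0, 0.00740 and 0.0648. No beta sample reached the lowest alpha or delta sample, and alpha 3 lay far below the other alpha samples. The PP cell hormone gene Ppy had the same order of means, at 30424 FPKM in alpha, 21473 in delta and 45.05 in beta cells, beside 3.09, 2.49 and 0.0304 for Adora2a, and the summed level of the 5 duct cell genes listed was also lowest in beta cells. The duct sums were 40.4 to 184 FPKM in alpha, 36.9 to 106 in delta and 14.3 to 32.7 in beta cells, with Spp1 the highest by mean (54.8, 26.3 and 9.05), Krt19 at 0 in every delta sample and Sox9 at most 0.0114 in alpha and 0.0131 in beta cells. The part of Ppy and of the duct genes in the Adora2a result was not tested.

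The beta minus alpha difference in Adora2a was -1.81 (SE 0.408, limma adjusted p = 0.012). The delta minus beta difference was 1.71 (SE 0.392, limma adjusted p = 0.0076). Delta and alpha cells differed by -0.10 (SE 0.368, limma adjusted p = 0.95), and the sign of this small difference turned under 6 of 23 alternative settings. With only alpha and beta samples in the fit, the beta to alpha difference was not called (adjusted p = 0.063). In every one of the 15 fits that left out 1 sample it was called.

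Adora2b, the Gs-coupled receptor of lower adenosine affinity, was at 0.557, 1.94, 0.115 and 1.14 FPKM in beta samples 1 to 4. It lies on chromosome 11 (chr11:62248984-62266453, plus strand). Alpha samples had 0 to 0.178 FPKM with 3 of 5 at 0, and delta samples 0 to 0.349, so both overlapped beta 3. In the fit of all rows above 0, Adora2b was called against alpha cells (0.79, SE 0.209, limma adjusted p = 0.0496) and in delta against beta cells (-0.70, SE 0.201, limma adjusted p = 0.043). These calls were kept in only 1 and 2 of the 15 fits that left out 1 sample, with adjusted p up to 0.15 and 0.13, and each in 6 of 22 alternatives in all.

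The 2 Adora3 rows need separate accounts. The Adora3 row proper, ENSMUSG00000000562 (chr3:105870858-105908926, plus strand), encodes the Gi-coupled adenosine receptor. The second Adora3 row is ENSMUSG00000074344 (chr3:105870903-105924042, plus strand), which GENCODE M21 names Tmigd3. They share 779 nt of exon on the same strand, which is 20.9% of the exons of Adora3 and 33.9% of those of the second row, so the files' counting could split reads between them in an uncertain way.

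**Figure D4:**
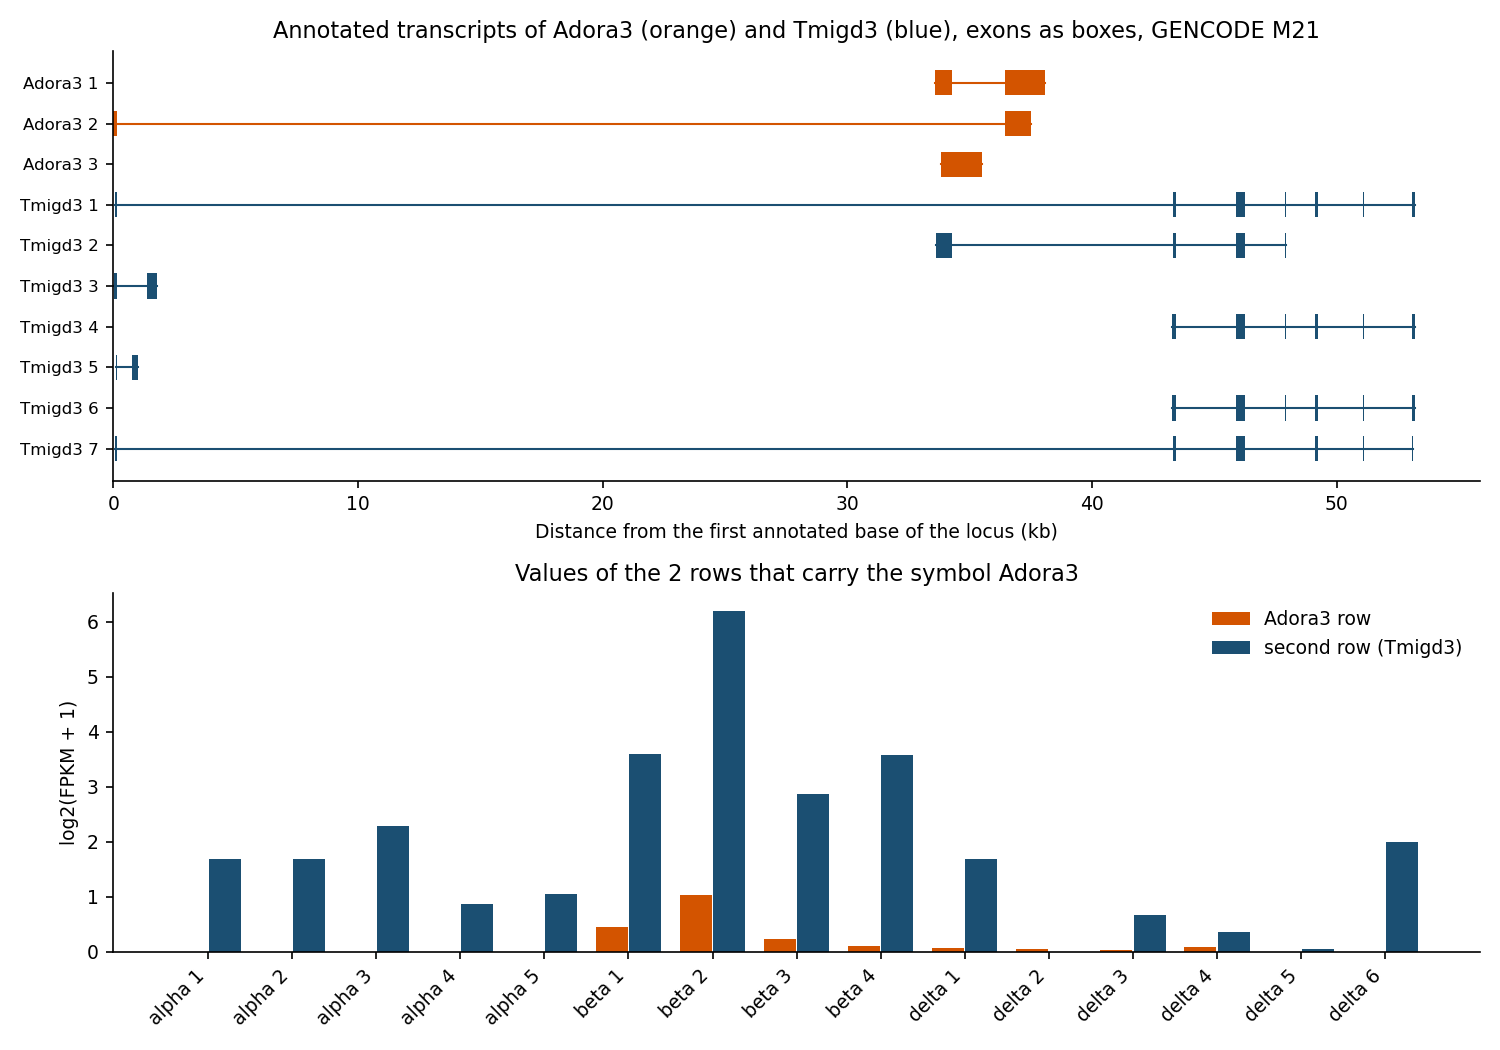
Top, annotated transcripts of Adora3 (orange) and Tmigd3 (blue) by distance in kb from the first annotated base, with exons as boxes; bottom, log2(FPKM + 1) of both rows in each sample. The second row exceeds the Adora3 row in 14 of 15 samples, with its highest bar in beta 2, at 72.9 FPKM.

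The Adora3 row was listed at 0 in all 5 alpha samples. Beta samples 1 to 4 had 0.362, 1.06, 0.176 and 0.0793 FPKM, and the delta samples ranged from 0 to 0.0677. Every beta sample was above every alpha and delta sample. In the fit of all rows above 0 the difference from alpha to beta cells was 0.46 (SE 0.132, limma adjusted p = 0.072) and from beta to delta cells -0.42 (SE 0.127, limma adjusted p = 0.058). Both became calls when beta 2, 3 or 4 was left out, with adjusted p from 0.013 to 0.14 over the 15 fits in the first case and from 0.018 to 0.12 in the other. They were also calls with a pseudocount of 0.1 (limma adjusted p = 0.0073 and 0.012), size factors (0.0038 and 0.0034), quantile normalization (0.0048 and 0.0032) and a term for the ribosomal protein split (0.030 and 0.029), but not with only the 2 cell types compared (0.31 and 0.14).

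The second Adora3 row had the highest mean of the 11 rows in beta cells. Its beta samples 1 to 4 had 11.1, 72.9, 6.34 and 10.96 FPKM, its alpha samples 1 to 5 had 2.24, 2.21, 3.89, 0.826 and 1.07, and its delta samples 1 to 6 had 2.24, 0, 0.595, 0.286, 0.0395 and 3.00. All beta samples were above all others, and beta 2 carried most of the mean of 25.3 ± 31.8. The beta minus alpha difference of this row was 2.55 (SE 0.606, limma adjusted p = 0.017) and its delta minus beta difference -3.27 (SE 0.583, limma adjusted p = 0.0012). From alpha to delta cells the difference was -0.72 (SE 0.547, limma adjusted p = 0.59). The call against alpha cells held in each of 15 fits without 1 sample but not with a pseudocount of 0.1 or with only alpha and beta samples (adjusted p = 0.091).

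The RefSeq starts of Tmigd3 and Adora3 lie 33563 nt apart, so their upstream windows are different sequences. The windows do not separate the 2 rows, since in GENCODE M21 an Adora3 transcript starts at the first base after the Tmigd3 window (105870858) and a Tmigd3 transcript starts just past the Adora3 window (105904483). They are printed as the RefSeq start regions of this shared locus, with none of the 4 motifs in either and therefore no capitals (Adora3 at GRCm38.p6 chr3:105904171-105904420, Tmigd3 at chr3:105870608-105870857, both plus strand).
Adora3: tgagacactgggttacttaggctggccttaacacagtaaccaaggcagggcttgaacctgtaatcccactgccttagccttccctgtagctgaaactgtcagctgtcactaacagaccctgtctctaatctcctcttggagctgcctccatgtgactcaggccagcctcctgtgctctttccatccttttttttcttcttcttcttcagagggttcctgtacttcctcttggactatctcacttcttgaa
Tmigd3: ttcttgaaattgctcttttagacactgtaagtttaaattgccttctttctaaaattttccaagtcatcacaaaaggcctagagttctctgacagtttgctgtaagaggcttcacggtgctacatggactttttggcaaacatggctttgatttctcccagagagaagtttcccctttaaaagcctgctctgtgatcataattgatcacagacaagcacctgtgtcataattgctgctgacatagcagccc
The Adora3 window has 48.8% GC and no CG pair, and the Tmigd3 window has 40.8% GC and 1 CG pair. Both lie below the median of 52.4% GC, as do the windows of P2ry12 and P2ry13 (41.6% each) and all 4 windows of P2ry14. The windows above it were not limited to receptors with high levels, since P2ry2, listed at 0 in all samples, had windows of 65.2% and 71.2% GC and Adora2b one of 69.6%. Upstream sequence was matched for 8 of the 10 member symbols.

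By mean FPKM the order of the 11 rows in beta cells was the second Adora3 row, P2ry1, P2ry6, P2ry12, Adora1 and Adora2b. P2ry1 had the higher median of the first pair, since beta 2 lifted the mean of the second Adora3 row. In delta cells the order was P2ry1, Adora1, Adora2a and P2ry6. In alpha cells it was Adora2a, the second Adora3 row and P2ry12, with P2ry12 lifted by alpha 1 and at a median of 0. Adora1 (4.28 ± 3.78 FPKM) and Adora2a (2.49 ± 0.947) in delta cells, and P2ry12 (1.66 ± 1.14) and Adora1 (1.40 ± 0.854) in beta cells, differed by less than the larger SD of each pair.

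The 10 rows above 0 did not overlap between samples of 2 cell types in 6 cases for beta against alpha, 2 for delta against alpha and 5 for delta against beta cells. Over all rows above 0 the shares were 5.79%, 4.86% and 10.9%. In beta against alpha cells P2ry1, P2ry6, Adora1, Adora3 and the second Adora3 row had all beta samples above, and Adora2a had all beta samples below.

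The genes most like each member over the 15 samples are a description with no test, and share the libraries with it. P2ry1 was most like Tnfrsf11b, Kcnip1 and Pdyn (Pearson r = 0.959, 0.953 and 0.939 in log2(FPKM + 1), over 14404 genes searched). P2ry6 was most like Cntfr, Cttnbp2 and Prss53 (0.934, 0.928 and 0.905). Adora1 was most like Mpp3, Dct and Atp6v0a2 (0.941, 0.940 and 0.919). Adora2a was most like Oxtr, the oxytocin receptor gene, and Kctd2 and Phc2 (0.946, 0.928 and 0.915). P2ry12 was most like 2210019I11Rik, Neat1 and Acsl3 (0.931, 0.920 and 0.900), and the second Adora3 row most like T2, Rad51ap2 and Asb11 (0.929, 0.912 and 0.900). These r values include the differences between cell types. They do not by themselves show likeness within a cell type, where the samples are few and r went both ways. With its 3 genes P2ry1 had r of 0.85 to 0.87 within the beta and 0.91 to 0.93 within the delta samples. Within the alpha samples the r was 0.21 to 0.50. Adora1 with its 3 genes had r of 0.87 to 0.93 within delta, 0.55 to 0.91 within beta and 0.02 to 0.69 within alpha samples. P2ry6 had 0.76 to 0.91 with its genes within the delta samples, but did not rise with any of the 3 within the beta samples. Adora2a rose with Oxtr within the alpha samples (0.96), but not with Oxtr or Phc2 within the beta samples. Within the delta samples P2ry12 did not rise with 2210019I11Rik or Acsl3, nor the second Adora3 row with T2. The mean Oxtr level was 20.9 FPKM in alpha, 0.531 in beta and 14.8 in delta cells, the same order as that of Adora2a.

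The surrounding pathway was read from 37 genes for other P2Y and P2X receptors, breakdown, release and transport of nucleotides and nucleosides, and adenosine clearance. Of these, 17 passed the limit and 6 were at 0 in every sample. From alpha to beta cells 2 of the 17 were higher and 1 lower, where 2.84% and 4.82% of all genes tested were. From alpha to delta cells 5 were higher, beside 5.33% of all genes, and none lower. From beta to delta cells 5 were higher and none lower, beside 11.7% and 2.99% of all genes. The 2 other P2Y genes listed, P2ry4 and P2ry10, were not above the limit, and of 7 P2X channel genes only P2rx4 was, at 17.6 ± 13.9 FPKM in alpha, 10.9 ± 9.10 in beta and 6.07 ± 2.97 in delta cells, with no call.

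Entpd3, which breaks down extracellular ATP and ADP, ranged from 1.62 to 4.51 FPKM in the alpha samples, from 8.05 to 17.3 in the beta samples and from 6.98 to 21.4 in the delta samples. Against alpha cells its difference was 1.63 for beta (SE 0.353, limma adjusted p = 0.0090) and 1.67 for delta cells (SE 0.319, limma adjusted p = 0.0030). Enpp2, which encodes autotaxin, had 17.8 to 239 FPKM in beta and 9.59 to 20.8 in alpha cells, so the groups overlapped although it was called (2.15, SE 0.570, limma adjusted p = 0.031). Slc17a9, the vesicular nucleotide transporter gene, was lower in beta cells, at 0.361 to 1.43 FPKM against 2.28 to 5.13 in alpha and 2.08 to 7.60 in delta cells, with differences of -1.31 (SE 0.363, limma adjusted p = 0.037) and, from beta to delta, 1.54 (SE 0.349, limma adjusted p = 0.0071).

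Panx1, a channel through which ATP can leave the cell, was at 2.72 to 11.3 FPKM in delta cells and at most 0.939 in alpha and 0.630 in beta cells. Its difference was 2.52 against alpha cells (SE 0.321, limma adjusted p = 7.5e-05) and 2.52 against beta cells (SE 0.343, limma adjusted p = 0.00012). Of the nucleoside transporter genes, 3 were likewise called upwards in delta cells against each of the other types. Slc29a1, which takes up adenosine, was at 35.0 to 77.0 FPKM in delta, 13.9 to 19.1 in beta and 6.65 to 16.6 in alpha cells. Its differences were 2.01 (SE 0.306, limma adjusted p = 0.00041) and 1.48 (SE 0.326, limma adjusted p = 0.0059). Slc28a3 differed by 0.85 (limma adjusted p = 0.029) and 0.87 (limma adjusted p = 0.023), and Slc29a4 by 1.96 (limma adjusted p = 0.038, with alpha and delta samples overlapping) and 2.79 (limma adjusted p = 0.0039). Of 6 genes for adenosine clearance and formation, 4 passed the limit and none was called.

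**Figure D5:**
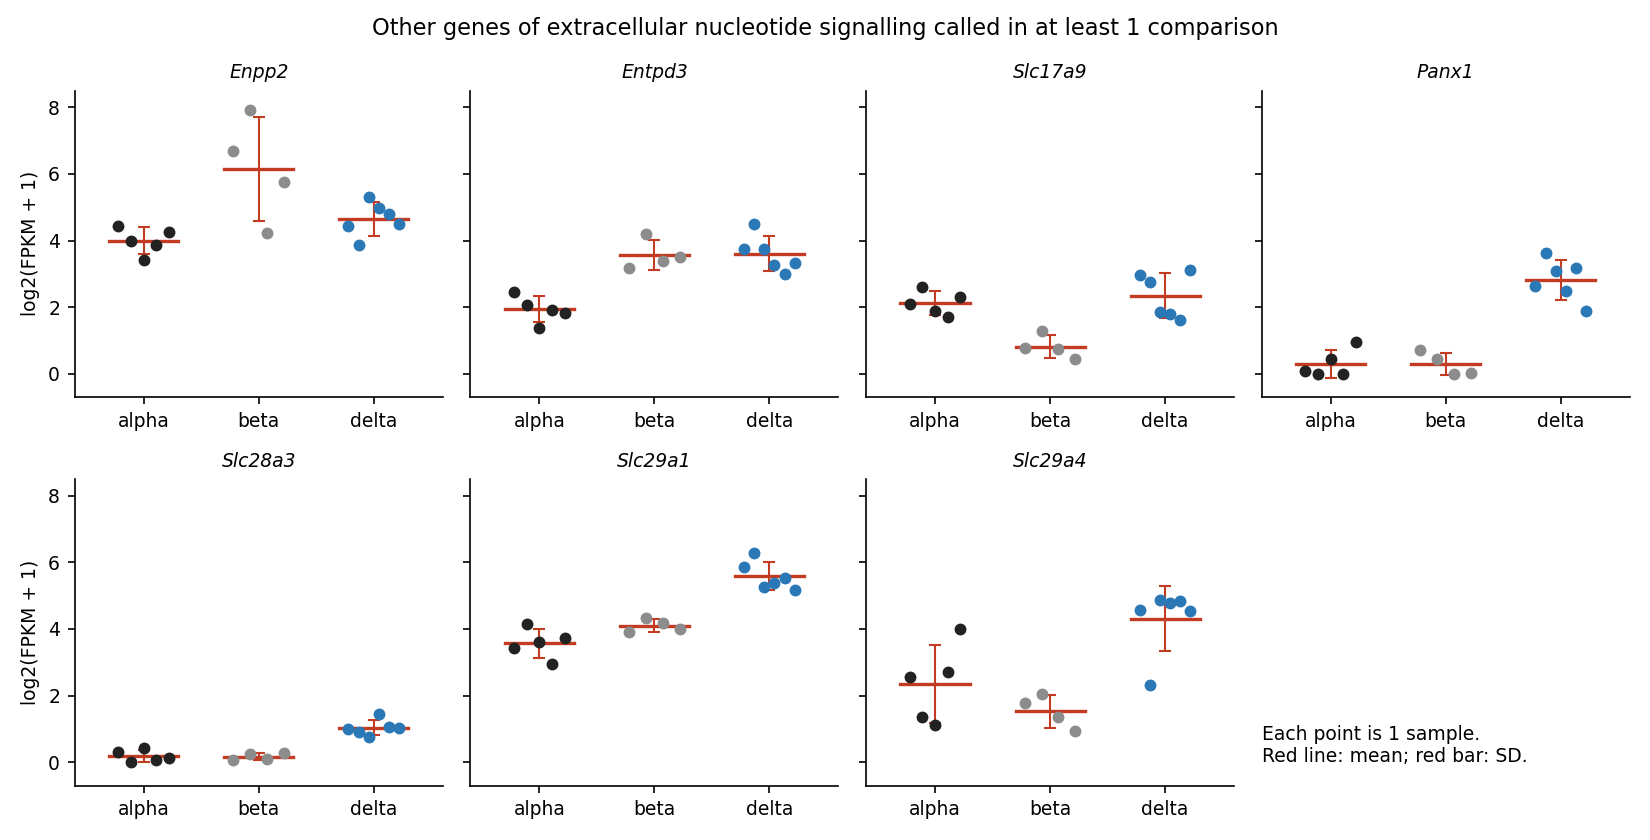
Level as log2(FPKM + 1) (vertical axis) in each sample for the 7 other genes of the pathway called in at least 1 comparison, with mean (red line) and SD (red bar). Panx1 lies at 2.72 FPKM or more in delta cells and at 0.939 or less in every alpha and beta sample.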

How the data were processed

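RNA of 15 sorted samples was amplified, fragmented and sequenced by the authors, aligned to GRCm38 and deposited as gene-level FPKM (Cufflinks 2.2.1), with TopHat2 2.0.8 named as the aligner in the submitters' processing notes. The annotation release and any scaling between libraries are not given in the sources used here. The authors compared counts with edgeR. The deposited values are FPKM, which do not suit a count test, so limma 3.58.1 in R 4.3.3 (lmFit, eBayes with trend) was used on log2(FPKM + 1). The fit had a mean for each cell type and all 15 samples, and p-values were adjusted by Benjamini-Hochberg over 14405 genes with a mean above 1 FPKM in at least 1 cell type. Rows under that limit were read in the fit of 23792 rows above 0. A call is an adjusted p under 0.05. The fit was tested on simulated data.

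Each replicate is a pool of islets, and beta cells were gated from the Venus-negative cells of Glu-Venus sorts. Whether an alpha and a beta sample came from the same pool is not given in the sources used here. The tests treat all samples as independent. Samples were assigned to cell types by their labels. Exact permutation tests were two-sided and unadjusted, with SciPy 1.17.1 (30 tests). The smallest p they can give is 0.0159 for beta against alpha, 0.00433 for delta against alpha and 0.00952 for delta against beta cells. Python 3.11.15, numpy 2.4.6, pandas 2.3.3 and matplotlib 3.10.9 served the remaining steps. Depth was sought as a common step of single reads in 5024 genes with 1 transcript over 1000 nt, with length taken less 200 nt. In the 6 samples resolved, 26.8% to 45.5% of values were within 0.1 reads of a whole number, so no count test was run on recovered reads. With depth unknown in the others, no floor of detection is given and a 0 is reported as listed at 0.

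The members and gene lists were chosen with earlier results of these data known. So were the split of samples at a summed ribosomal protein level of 50000 FPKM and the receptor shares within a sample, which were added as a description. Genes named are the members, genes that overlap them or share their symbol, pathway genes called in a comparison, markers that move with a member, and for each tested member the 3 genes of highest Pearson correlation over the 15 samples. P2ry4, P2ry10 and P2rx4, named without a call, are exceptions chosen after their values were seen. So are the markers Emr1, Aif1, Ptprc, Cd68, Tyrobp, C1qa, C1qc, Lyz2, Krt19 and Sox9. Gene models are from GENCODE M21 and upstream sequences from RefSeq (GRCm38.p6), for 8 of 10 symbols. Replicate numbers are those of the labels and were not treated as pairs. Alternatives were other filters, pseudocounts and scalings, a replicate block, a term for the ribosomal protein split, a fit of only the 2 cell types compared, a stricter threshold and leaving out each sample.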

Additional observations from a re-analysis of the deposited data

Results flagged for a closer look

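The lowest or highest sample of a group of 4 to 6 stood apart from the others by Dixon's test on log2(FPKM + 1) in 5 of 28 groups of member values. In 2 of the 5, both of P2ry13, all other samples were at 0, so that the single value above 0 had to stand apart. Of the remaining 26 groups 3 were flagged. Chance flags about 1 in 20 groups of normally distributed values, which is a rough guide here since many values are at 0. P2ry6 was at 0.406 FPKM in alpha 4 and at 0.104 or less in the other alpha samples, and only just passed (ratio 0.7105, critical value 0.71). P2ry12 was at 1.88 FPKM in alpha 1 and at 0.0675 or less in the other 4. Since 3 of those were at 0, its single high value was nearly bound to stand apart. Adora2a was at 0.183 FPKM in alpha 3, against 2.97 to 4.51 in the other alpha samples. P2ry13 was listed at 0 in all samples but beta 1, at 0.167 FPKM, and delta 5, at 0.0424 FPKM. On FPKM without the log, a scale added after seeing the data, 8 groups had such a sample, and Adora2a in alpha 3 was not among them. The 4 that were added were the second Adora3 row in beta 2 (72.9 FPKM, against 6.34 to 11.1 in the other beta samples), P2ry12 in beta 2 (3.34 against 0.959 to 1.36), P2ry14 in beta 1 (1.40 against 0.0287 to 0.252) and Adora1 in delta 2 (11.5 against 1.38 to 4.62).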

How the results depend on the processing

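Over 23 alternatives, P2ry1 and P2ry6 stayed called between beta and alpha cells, P2ry1 and Adora1 between delta and alpha cells, and P2ry6, Adora2a and the second Adora3 row between delta and beta cells, all at the threshold of 0.05. At a threshold of 0.01 the members called between beta and alpha cells went from 4 to 2 of 6, beside 1104 to 461 of all 14405 genes. Between delta and beta cells they went from 3 of 6 to 5 of 10 without a filter and to 5 of 9 with a limit of 0.1 FPKM. Adora2b and P2ry12 were then tested or called. Of all genes 2160 of 23792 and 2212 of 19804 were called with those settings, against 2114 of 14405. Among the differences not called, P2ry12 became a call in 4 alternatives from alpha to beta cells and in 7 from beta to delta cells, Adora1 from alpha to beta cells in 4, P2ry6 from alpha to delta cells in 1, and the Adora3 row in 7 from alpha to beta cells and in 7 from beta to delta cells. Signs turned only for differences that were not called. Adora2a from alpha to delta cells was 0.0758 with a pseudocount of 0.1 and 0.0299 with a replicate block, and -0.51 to 0.0499 with 1 sample left out. P2ry12 from alpha to delta cells was 0.73 with a pseudocount of 0.1, 0.0838 with a term for the ribosomal protein split, and -0.0946 to 0.29 with 1 sample left out. P2ry14 from alpha to delta cells was -0.0473 after quantile normalization and -0.0378 with the ribosomal protein term. P2ry13 from beta to delta cells was -0.0645 to 0.00998 with 1 sample left out. The cause was not tested.

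Genes called between beta and alpha cells went from 1104 to 461 at a threshold of 0.01, 2008 with size factors, 1970 after quantile normalization and 520 with only those cell types. Leaving out 1 sample gave 651 (without beta 4) to 1698 (without beta 2), with 696 without beta 1 and 702 without alpha 2. At a threshold of 0.01 the other comparisons went from 981 to 567 (delta against alpha) and from 2114 to 1045 (delta against beta). Of the 1104 genes 409 were higher and 695 lower in beta cells, against 944 and 1064 with size factors, 654 and 434 without beta 3, 354 and 1344 without beta 2, 340 and 356 without beta 1, 244 and 407 without beta 4 and 276 and 426 without alpha 2. From beta to delta cells 1683 were higher and 431 lower, against 1693 and 1025 with size factors and 1397 and 1348 after quantile normalization, which moved the median of all genes from 0.30 to 0. The lower ones were 739 without beta 3 and 264 without beta 4. From alpha to delta cells 768 were higher and 213 lower, against 618 and 470 after quantile normalization, which moved the median from 0.13 to -0.04. Same-numbered samples deviated together weakly (r of -0.15 to 0.28 over 13 pairs, 5 above 0.1). For alpha and beta samples numbered 1 to 4 the r was -0.04, 0.27, -0.15 and 0.07. Since numbers need not follow pools, this cannot show whether alpha and beta samples shared islet pools. With the replicate block 1227, 831 and 2001 genes were called, with 4, 2 and 3 members. In the fit of all rows above 0 the block took the members called from 5, 2 and 5 to 3, 2 and 3. Over all 23792 rows it took the calls from 969, 1121 and 2160 to 932, 855 and 1812. Adora2b was then not called in beta against alpha (limma adjusted p = 0.060) or delta against beta cells (0.070). The unknown depth of 9 samples, every beta sample among them, limits what a 0 or a value near 0 means for P2ry2, P2ry13, P2ry14 and the Adora3 row.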
